A study of Zea mays with 48 samples.

Results

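In maize leaves, 31 genes met 4 criteria together: their RNA was at least 2 times higher with spider mites than without in the inbred B73 in both experiments of the study, infested B73 held at least 2 counts per 1000000 (CPM) in both, and the uninfested inbreds B96 and B75 each held at least 3 times the level of uninfested B73 of their own experiment. CPM is the count of a gene per 1000000 counts assigned to genes in that library. The genes were chosen by these measured mean CPM values, each over 4 libraries. The 31 genes are drawn from 44146 gene identifiers that start with Zm, in a table of 46272 features, and 1343 of the Zm genes met the B73 mite criteria alone. The criteria used 24 of the 48 libraries, namely all B73 libraries and uninfested B96 and B75. Values from these libraries are therefore a description without a test, and tests were made on infested B96, infested B75 and the libraries of both F1 hybrids, which played no part in the choice.

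The two-spotted spider mite, Tetranychus urticae, feeds by piercing leaf cells and emptying their contents. Plants answer such damage by inducing defence genes, and a line may also hold a part of its defences at a high level before any attack, which is called constitutive defence. An F1 hybrid carries 1 copy of each gene from either parent, so the level of a gene in the hybrid, set beside both inbreds, shows how far the state of a parent appears when only 1 of the copies comes from it. B96 and B75 are known as inbreds on which spider mites do poorly, and B73 is a widely used inbred and the source of the maize reference genome.

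The study had 12 groups of 4 libraries, from leaf 4 of greenhouse-grown plants 22 days old. Infested leaf sections carried 200 adult female mites for 24 hours inside a wax barrier, and control sections, called uninfested here, had the barrier alone. The B96 experiment held B73 (replicates 1 to 4), B96 and their F1, each uninfested and infested, and the B75 experiment held B73 (replicates 5 to 8), B75 and their F1 in the same layout. The labels name no transgene in these lines. They call the libraries biological replicates without saying how many plants each pooled, so a p-value here speaks only of the variation among these libraries.

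Depth ran from 12.5 to 20.9 M gene counts in uninfested and from 9.98 to 16.6 M in infested libraries. Reads of every line were placed on the genome of B73, and whether sequence differences cost the other inbreds and the hybrids reads was not tested. In leaf tissue, less RNA per cell and fewer cells of a type cannot be told apart. The identifiers carry no gene names in the table, the reference table used here matched 0 of the 31, and the leaf markers were therefore not checked and no role is given to any gene. A few libraries stood low or high over many of the 31 genes at once: infested B73 replicate 1 was the lowest of its 4 for 23 genes, uninfested B96 F1 replicate 4 for 20, and infested B96 F1 replicate 1, infested B75 F1 replicate 4 and uninfested B75 replicate 3 for 17 each. Uninfested B96 replicate 2 and infested B75 F1 replicate 1 were the highest of their 4 for 18 genes each. The part of these libraries in the results was not tested beyond leaving each out.

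The uninfested inbreds were above uninfested B73 by a median ratio of 10.4 for B96 and 8.42 for B75, as the criteria required a ratio of at least 3. Being above uninfested B73 was not the same as being at the induced level. Uninfested B96 held at least as much as infested B73 for 21 of the 31 genes, uninfested B75 for 14, and all of those 14 were also among the 21. For 10 genes neither inbred reached the infested B73 level. In 7 genes an uninfested inbred was still under 1 CPM (both inbreds for Zm00001d010840 and Zm00001d026412, and B75 alone for Zm00001d004344, Zm00001d007604, Zm00001d008548, Zm00001d024664 and Zm00001d048841), so for these the words "already high" rest on a ratio between very small values. Zm00001d008548 was above 1 CPM in uninfested B96 through replicate 2 alone (4.74 CPM against 0.636, 0.384 and 0.486), and without that library its B96 mean was 0.502 CPM, 2.52 times that of B73 and under the criterion. In Zm00001d026412, for example, uninfested B73 held 0.0149 CPM in the B96 experiment, uninfested B96 0.0813 CPM and infested B73 7.09 CPM.

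**Figure D1:**
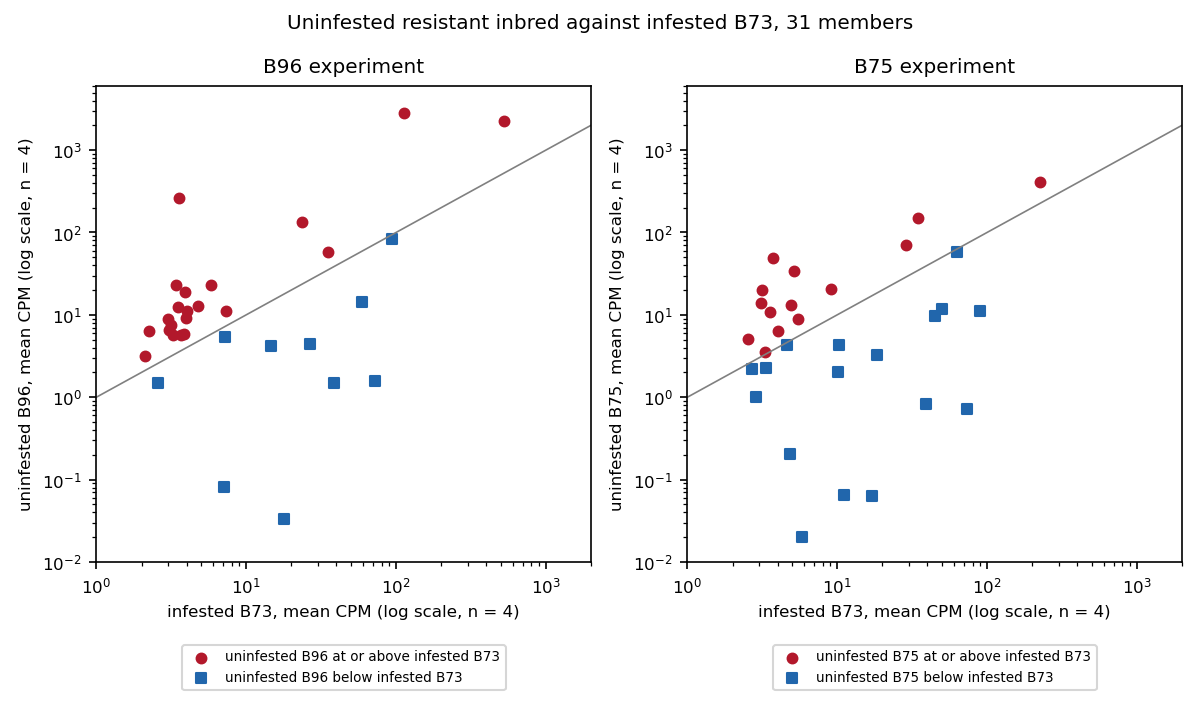
Mean CPM of each of the 31 genes in infested B73 (horizontal, log scale) against the uninfested inbred (vertical, log scale) of the same experiment, each point a mean of 4 libraries, with the line of equality. Red circles are genes at or above the infested B73 level, 21 in B96 and 14 in B75, and the points far below the line include the genes under 1 CPM.

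Some genes passed by a small margin. Zm00001d011782 was just inside, with a B73 mite ratio of 2.02 in the B96 experiment, as was Zm00001d031599 with 2.10 CPM in infested B73 of the same experiment. Just outside lay Zm00001d034674, whose uninfested B75 level was 2.98 times that of B73, and Zm00001d036741, whose B73 mite ratio was 1.97. When each of the 24 libraries was left out in turn, 18 of the 31 genes passed every time and the number of genes passing ran from 27, without infested B73 replicate 4 or 7, to 36, without uninfested B73 replicate 5. Zm00001d024898, with 0 counts in every uninfested inbred library of B73, B96 and B75, was not counted, since 0 is not 3 times 0.

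The first question was whether these genes still responded to mites in the hybrids. The hybrid libraries were not used in the choice, but B73, whose mite response was used, is a parent of both hybrids. A rise in the hybrids is thus partly given by the choice, and the shares of all genes do not allow for that. In the F1 of B73 and B96, 27 of the 31 genes rose with mites and 0 fell (edgeR's quasi-likelihood test, Benjamini-Hochberg adjusted p under 0.05 over all genes), where 20.3% of all genes tested rose and 20.3% fell. Their median log2 fold change was 2.25, against -0.03 over all genes. In the F1 of B73 and B75, 26 rose and 0 fell, where 22.4% of all genes rose and 23.6% fell, with a median log2 fold change of 1.88 against -0.03. The 24 genes that rose in both hybrids are 88.9% of those in the first and 92.3% of those in the second. The share of all genes that rose in both is not given here, so this overlap is only a description. All 4 infested libraries lay above all 4 uninfested ones for 25 genes in the F1 of B96 (18.2% of all genes) and for 27 in the F1 of B75 (26.6% of all genes).

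**Figure D2:**
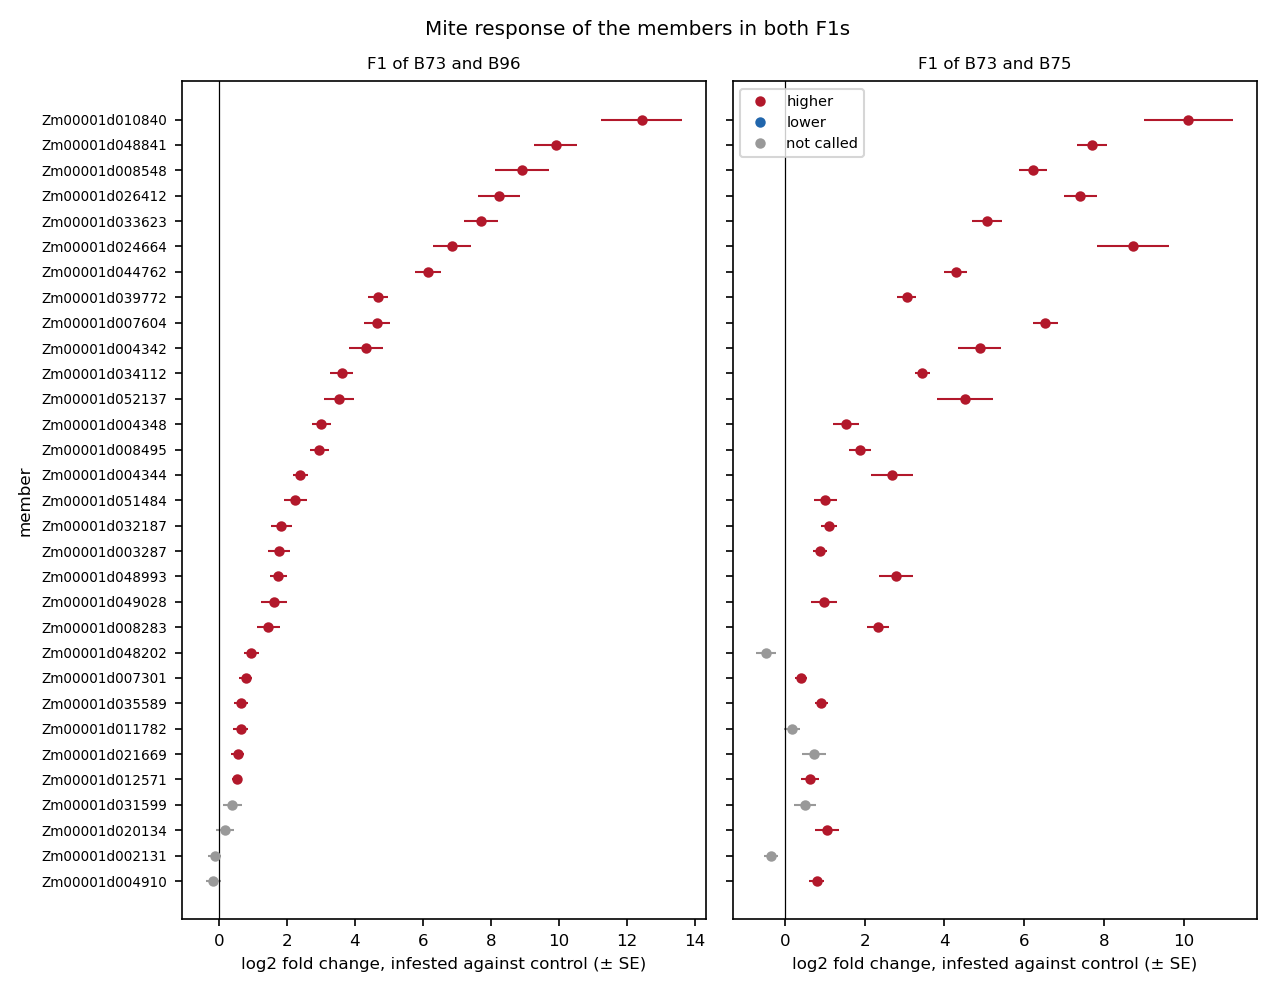
Log2 fold change with mites (infested against uninfested, ± SE, 4 libraries a group) of each of the 31 genes in the F1 of B73 and B96 and in the F1 of B73 and B75. The colours give the call, 27 and 26 genes being higher and 0 lower, and the sizes run from near 0 in Zm00001d002131 to 12.43 in Zm00001d010840, a fitted value against 0 counts.

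A response of this kind was not particular to the 31 genes. Of the 1172 genes with the same B73 mite response and neither inbred high, 94.5% rose in the F1 of B96 and 94.9% in the F1 of B75, and of the 102 genes high in B96 alone 92.2% rose in the F1 of B96. Of the 38 genes high in B75 alone 76.3% rose in the F1 of B75. The shares of the 31 were 87.1% and 83.9%. Of the genes high in both uninfested inbreds that did not meet all B73 mite criteria, 973 were tested in the F1 of B96 and 11.7% rose. A gene could fail these criteria by its level or in a single experiment, so this set can hold genes that respond to mites in B73. These shares stand side by side as a description, without a test of their difference.

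The largest levels belonged to 2 genes with close identifiers. Zm00001d004342 held 2540, 3183, 2077 and 3516 CPM in uninfested B96 against 7.62, 13.3, 10.5 and 37 CPM in uninfested B73, the widest gap between these groups in absolute terms. Its level in the uninfested F1 was 73.2, 105, 46.1 and 127 CPM, and in the infested F1 it was 2173, 1980, 1847 and 1962 CPM. Every infested F1 library was thus above every uninfested one, with a log2 fold change of 4.32 ± 0.50 (SE; adjusted p = 6.5e-07). In the F1 of B75 the same gene went from 18.6, 21.8, 10.7 and 21.8 CPM to 780, 678, 456 and 503 CPM, again without overlap (4.88 ± 0.53, adjusted p = 1.7e-07).

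Zm00001d004348 was at 2118, 2501, 1968 and 2490 CPM in uninfested B96. In the F1 of B96 it was at 298, 316, 254 and 217 CPM without mites and at 2441, 2350, 2451 and 2341 CPM with them. The infested hybrid therefore came to about the level of the uninfested B96 parent, and the fold change within the hybrid was 3.01 ± 0.28 on the log2 scale (adjusted p = 3e-08). The F1 of B75 went from 198, 232, 128 and 183 CPM to 754, 609, 536 and 516 CPM, a smaller rise of 1.54 ± 0.33 (adjusted p = 0.00067). Together with Zm00001d004342 it made up 87.3% of all CPM of the 31 genes in uninfested B96 and 75.7% in infested B96. The identifier Zm00001d004344, named after its values were seen, lies between those of both genes and belongs to the 31 at lower levels, with 13.1, 16.8, 15.4 and 11.6 CPM in the infested F1 of B96 against 2.41, 2.52, 2.51 and 2.29 CPM uninfested (2.40 ± 0.23, adjusted p = 5e-08). Reads that 2 near-identical copies share can be lost or split in such counts, and whether these genes share reads was not tested.

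Zm00001d039772 had the largest ratio of infested B96 to infested B73 among the 31 genes. Infested B73 held 1.18, 4.22, 4.57 and 4.28 CPM in the B96 experiment, whereas infested B96 held 2120, 2256, 2276 and 2018 CPM. Infested B75 held 984, 743, 1314 and 1223 CPM against 5.88, 3.69, 3.01 and 2.30 CPM in infested B73 of its experiment. Both inbreds were thus far above B73 in every library. The F1 of B96 went from 7.55, 7.31, 7.59 and 2.54 CPM to 151, 163, 189 and 181 CPM (log2 fold change 4.67 ± 0.29, adjusted p = 9.2e-11), and the F1 of B75 from 28.2, 23.1, 15.2 and 25.2 CPM to 243, 206, 184 and 224 CPM (3.05 ± 0.23, adjusted p = 7.2e-10). Each infested hybrid was far above infested B73 and far below its other infested parent.

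Zm00001d044762 and Zm00001d033623 were low in the uninfested hybrids and rose steeply. Zm00001d044762 was at 6.5, 7.86, 3.13 and 4.52 CPM uninfested and at 346, 468, 461 and 454 CPM infested in the F1 of B96 (6.14 ± 0.38, adjusted p = 7.9e-11). The F1 of B75 went from 5.40, 10.4, 8.30 and 3.72 CPM to 174, 175, 142 and 105 CPM (4.28 ± 0.29, adjusted p = 1.2e-10). Zm00001d033623 was near 1 CPM in the uninfested F1 of B96, at 0.681, 1.29, 1.25 and 0.372 CPM, and reached 378, 136, 141 and 158 CPM with mites (7.71 ± 0.50, adjusted p = 1.7e-10), with infested replicate 1 far above the other 3. Its rise in the F1 of B75 was 5.06 ± 0.37 (adjusted p = 3.1e-10), from 1.71, 3.53, 1.87 and 1.78 CPM to 130, 86.3, 73.3 and 42.9 CPM.

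The steepest rises belonged to genes that were close to silent without mites. Zm00001d010840 had 0 counts in all 4 uninfested libraries of the F1 of B96 and 25.5, 24.4, 70.6 and 90.4 CPM in the infested ones, at least 1106-fold higher when the uninfested group is set to 3 counts over its 4 libraries. Zm00001d048841 went from 0.371, 0.614, 0.418 and 0.124 CPM to 181, 392, 496 and 560 CPM in the same hybrid (9.90 ± 0.62, adjusted p = 9.2e-11), and from 0.273, 2.13, 2.21 and 0.458 CPM to 342, 354, 289 and 184 CPM in the F1 of B75 (7.70 ± 0.38, adjusted p = 6.8e-13). Zm00001d008548 went from 0.124, 0.368, 0.209 and 0.0619 CPM to 48.2, 68.2, 171 and 138 CPM in the F1 of B96 (8.92 ± 0.80, adjusted p = 1.6e-08). All of these genes were among the 7 under 1 CPM in an uninfested inbred. Zm00001d026412, the remaining gene of the 3 largest mean responses over both hybrids, rose by 8.24 ± 0.61 in the F1 of B96 and by 7.40 ± 0.41 in the F1 of B75 (adjusted p = 1.2e-09 and 4.1e-12). Without the 7 genes under 1 CPM, 20 of the remaining genes rose in the F1 of B96 and 19 in the F1 of B75, a count added after the data were seen.

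**Figure D3:**
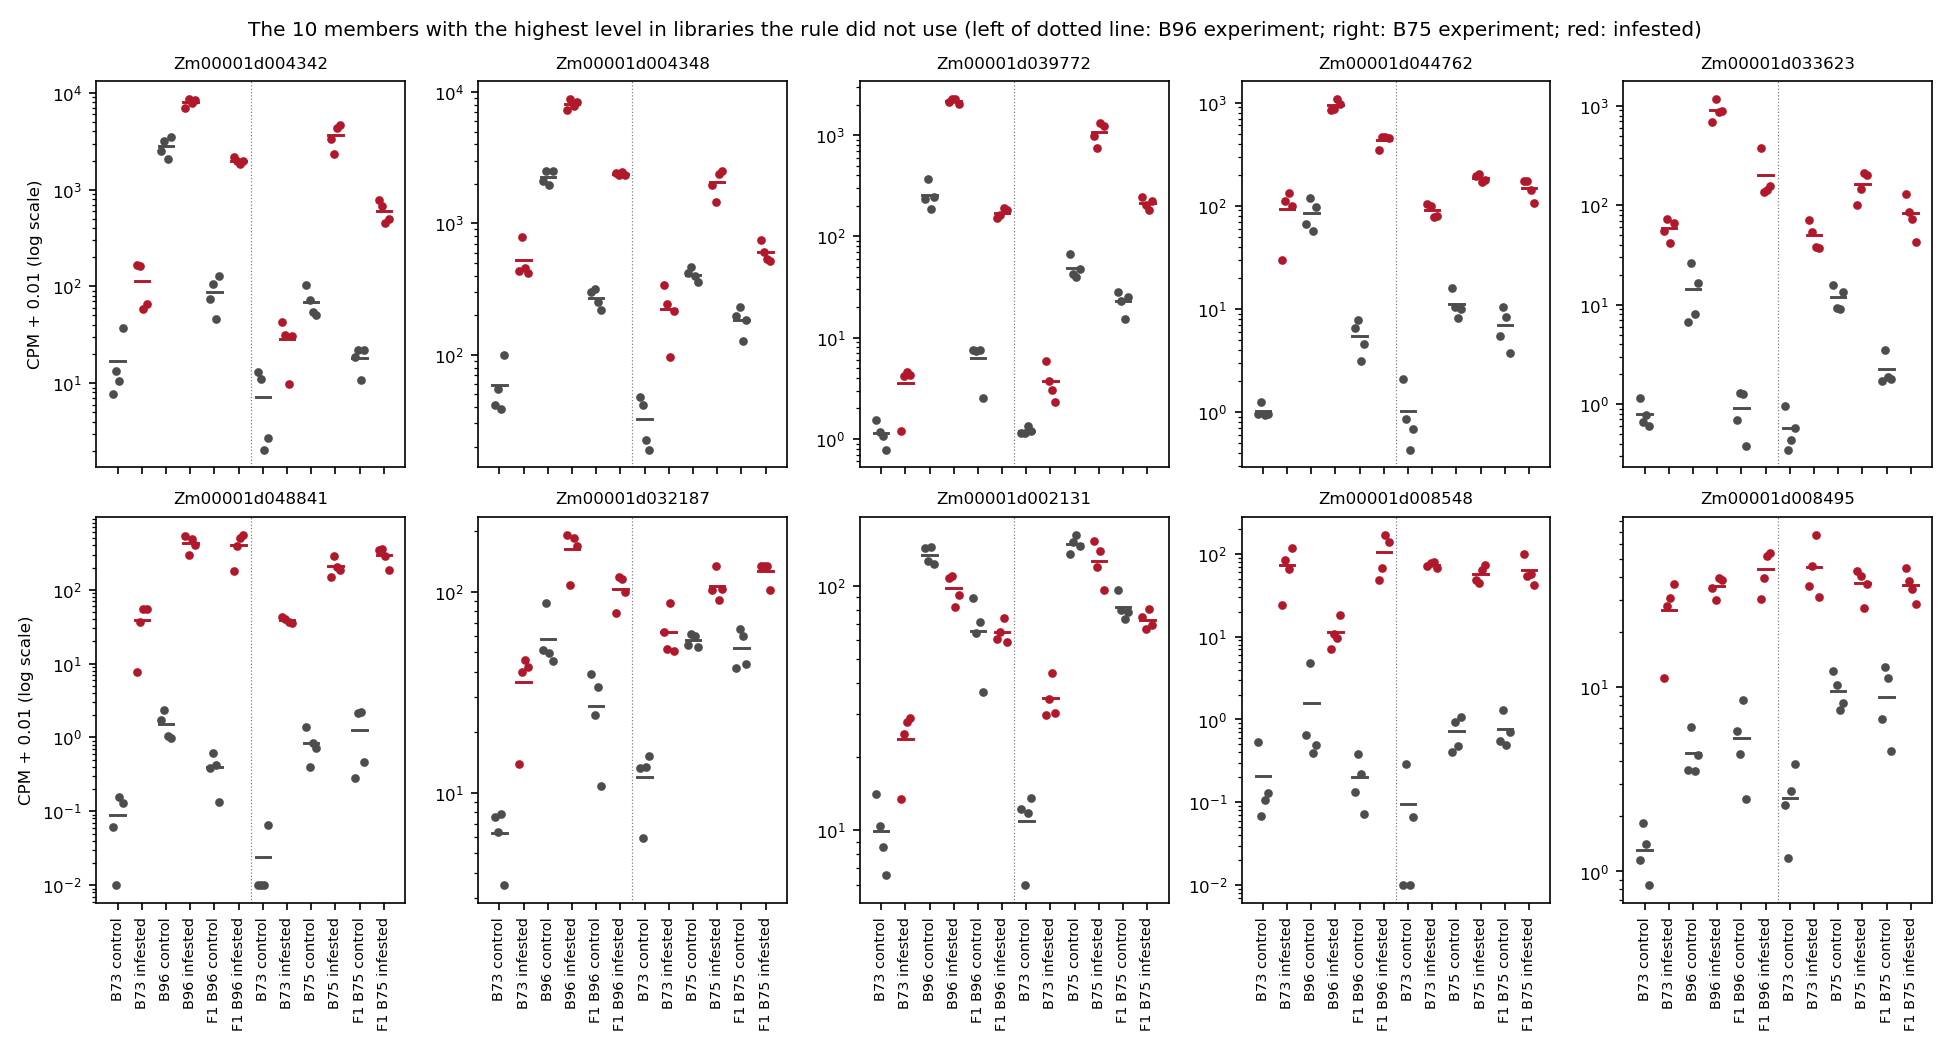
CPM of each library (log scale) for genes with the highest mean over the 24 libraries that the criteria did not use, by group, with the mean of each group as a bar and a small constant added so that 0 can be drawn. Uninfested hybrids of both crosses sit below their infested counterparts in genes such as Zm00001d004342, Zm00001d039772 and Zm00001d044762, while the hybrids overlap with and without mites in Zm00001d002131.

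At the other end, 7 genes did not pass the test in 1 or both hybrids. Zm00001d002131 was high and not called in either hybrid. The uninfested F1 of B96 held 89.2, 64.2, 70.8 and 36.7 CPM and the infested one 60.8, 64.6, 74.2 and 58.7 CPM, with full overlap (log2 fold change -0.12 ± 0.19, adjusted p = 0.64). The gene was at 96, 79.9, 73.4 and 78.3 CPM uninfested and at 74.8, 66.5, 80.2 and 69.2 CPM infested in the F1 of B75 (-0.35 ± 0.17, adjusted p = 0.095). Without uninfested B73 replicate 6 in the fit, this gene was called as fallen in the F1 of B75 (-0.35, adjusted p = 0.046). Its level in both hybrids lay between uninfested B73, at a mean of 9.89 and 10.9 CPM in the 2 experiments, and the uninfested inbreds, at 134.2 ± 11 CPM in B96 and 148 ± 11.5 CPM in B75 (SD, n = 4).

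Zm00001d031599 also missed the threshold in both hybrids, with log2 fold changes of 0.40 ± 0.28 (adjusted p = 0.28) and 0.50 ± 0.28 (adjusted p = 0.15). Zm00001d004910 and Zm00001d020134 did so in the F1 of B96, at -0.17 ± 0.22 and 0.19 ± 0.26 (adjusted p = 0.56 and 0.59), and rose in the F1 of B75, by 0.80 ± 0.19 and 1.05 ± 0.30 (adjusted p = 0.0018 and 0.006). Zm00001d048202 had the opposite calls. It rose by 0.96 ± 0.22 in the F1 of B96 (adjusted p = 0.0017) and was at -0.46 ± 0.25 in the F1 of B75 (adjusted p = 0.14). The test of the difference between both hybrids' responses, described below, did not pass for Zm00001d004910 (-0.99, adjusted p = 0.15) or Zm00001d020134 (-0.89, adjusted p = 0.68). Nor did it pass for Zm00001d048202 (1.39, adjusted p = 0.17), which DESeq2 called (1.42, adjusted p = 0.028). Zm00001d011782 and Zm00001d021669 rose in the F1 of B96 by 0.64 ± 0.23 and 0.55 ± 0.20 (adjusted p = 0.032 and 0.033) and were at 0.17 ± 0.20 and 0.73 ± 0.30 in the F1 of B75 (adjusted p = 0.49 and 0.05, the last just over the threshold before rounding). Both calls in the F1 of B96 were lost when the fit held only the compared groups (0.67 and 0.58, adjusted p = 0.12 and 0.1). They were also lost without uninfested F1 replicate 4 (0.43 and 0.35, adjusted p = 0.11 and 0.12), which left 25 genes risen, and without infested F1 replicate 3 (0.57 and 0.50). That of Zm00001d011782 was also lost without uninfested replicate 2 (0.60) or infested replicate 1 (0.51), and that of Zm00001d021669 without uninfested replicate 1 (0.52) or infested replicate 2 (0.54). The value of Zm00001d021669 in the F1 of B75 passed in 13 of 29 alternatives, among them those without uninfested F1 replicate 2 (0.98) or infested F1 replicate 2 (0.84).

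The genes were also described by their level in the uninfested inbreds. The 14 genes at or above infested B73 in both uninfested inbreds had median log2 changes of 0.65 in the F1 of B96 and 0.76 in the F1 of B75, with 10 and 9 of them risen. For the 7 genes at that level in B96 alone the medians were 2.40 and 2.79, with 7 and 7 risen. For the 10 genes below it in both inbreds they were 6.93 and 4.67, with 10 and 10 risen. Over all genes 20.3% rose in the F1 of B96 and 22.4% in the F1 of B75. Of the genes that met the B73 mite criteria with neither inbred high, 94.5% and 94.9% rose. The grouping uses infested B73 and uninfested inbreds, and a gene with a large B73 response is more likely to fall below the infested B73 level, so the order is a description.

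The difference between both hybrids' mite responses, fitted over the 16 hybrid libraries after the data were seen, passed the test for 2 genes. Zm00001d004348 responded more in the F1 of B96 by 1.45 ± 0.26 on the log2 scale (adjusted p = 0.021), and Zm00001d039772 by 1.60 ± 0.32 (adjusted p = 0.047). Over all genes 0.139% were called in this direction and 0.198% in the other, where 0 of the 31 were called. The hybrids come from separate experiments, so the cross and the experiment cannot be told apart, and the second call was lost in 14 of 20 alternatives, each without 1 library (1.48 to 1.73, adjusted p = 0.051 to 0.12). The call of Zm00001d004348 was lost without uninfested F1 of B75 replicate 1 (1.42) or 2 (1.36) or infested replicate 3 (1.39).

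The second question was where an infested hybrid stood against its infested inbred parent. These libraries were not used in the choice, but the genes were chosen for a higher uninfested level in the inbred than in B73. A hybrid below its inbred is thus partly given by the choice, and the shares of all genes do not allow for that. The infested F1 of B96 was lower than infested B96 in 18 of the 31 genes and higher in 2, where 20.1% of all genes were lower and 23% higher. The infested F1 of B75 was lower than infested B75 in 14 and higher in 3, where 16.3% of all genes were lower and 17.8% higher. The median log2 differences were -0.90 and -0.46. The 12 genes lower in both crosses are 66.7% of those in the first and 85.7% of those in the second. The share of all genes lower in both crosses is not given here, so this overlap is only a description. All 4 hybrid libraries lay below all 4 of the inbred for 16 genes in the B96 cross (9.58% of all genes) and 10 in the B75 cross (13.9%).

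**Figure D4:**
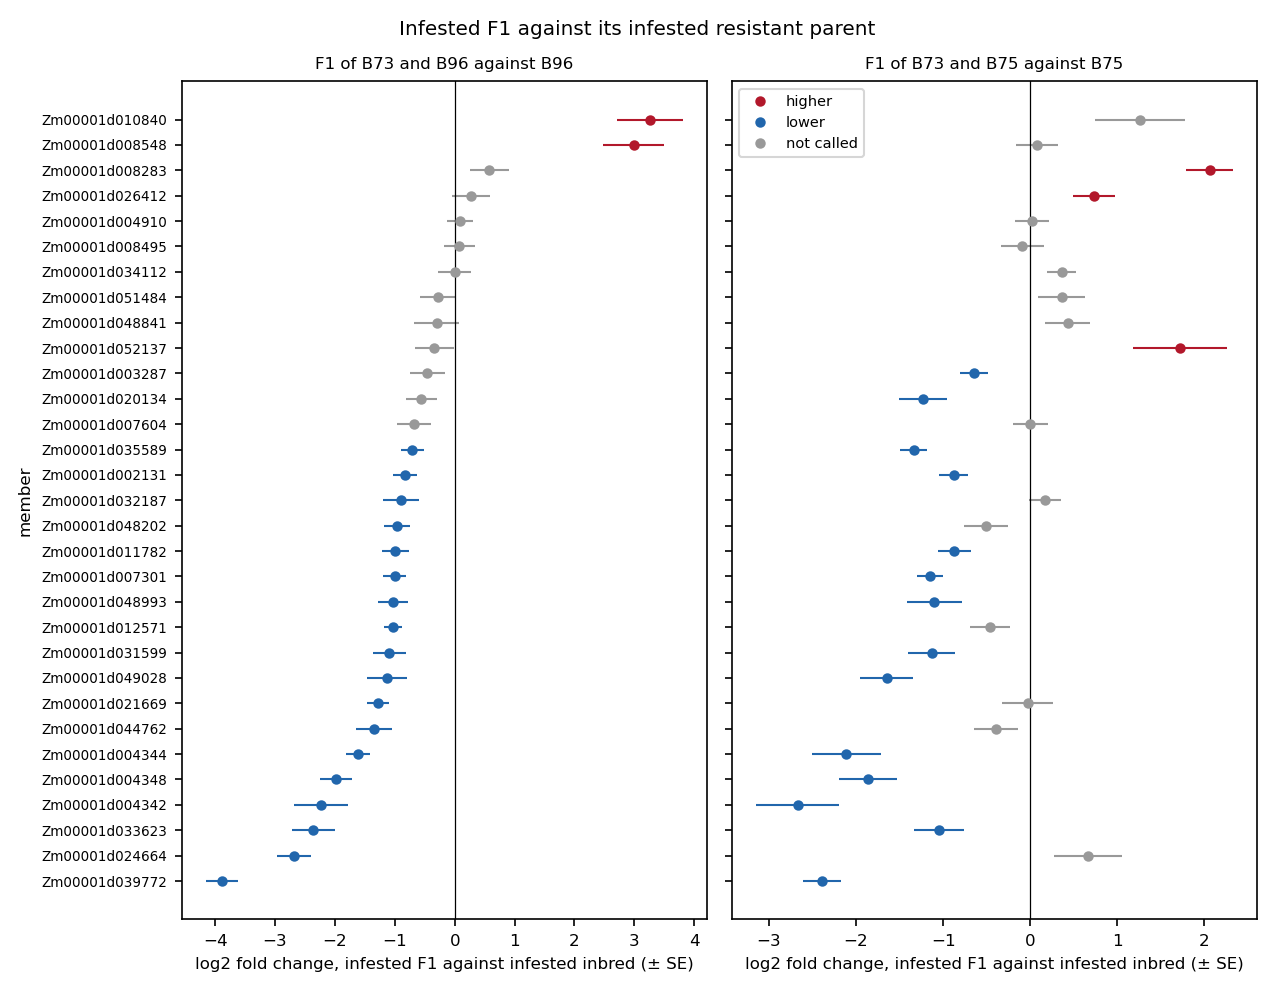
Log2 difference (± SE) between the infested F1 and its infested inbred parent B96 or B75 for each of the 31 genes, with 4 libraries a group and the colour giving the call. Zm00001d039772 lies lowest in the B96 cross at -3.89, and genes called higher are 2 in the B96 cross and 3 in the B75 cross.

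Zm00001d039772 stood lowest against its infested parent in the B96 cross, at -3.89 ± 0.27 (adjusted p = 1e-10), and at -2.39 ± 0.22 in the B75 cross (adjusted p = 1.7e-08). Zm00001d004342 was lower by similar amounts in both crosses. Its mean was 1991 ± 135 CPM in the infested F1 of B96 against 8005 ± 710 CPM in infested B96, a difference of -2.23 ± 0.45 (adjusted p = 0.00043). In the B75 cross the F1 mean of 604 ± 151 CPM stood against 3663 CPM in infested B75, a difference of -2.67 ± 0.48 (adjusted p = 0.00014).

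The genes in which the hybrid was above the inbred were others in each cross. Zm00001d008548 was at 48.2, 68.2, 171 and 138 CPM in the infested F1 of B96 and at 7.15, 10.7, 9.58 and 18.5 CPM in infested B96 (2.99 ± 0.51, adjusted p = 5.9e-05). Infested B73 held 23.8, 84.2, 66.2 and 116 CPM, so B96 was the lowest of the 3 infested genotypes for this gene. Zm00001d010840 was likewise above infested B96 by 3.26 ± 0.55 (adjusted p = 0.00017). In the B75 cross, Zm00001d008283 was at 12.2, 10.4, 13 and 6.07 CPM in the infested F1 against 2.92, 1.10, 3.41 and 2.04 CPM in infested B75 (2.06 ± 0.27, adjusted p = 3.4e-06). Zm00001d052137 (1.72 ± 0.54, adjusted p = 0.016) and Zm00001d026412 (0.73 ± 0.24, adjusted p = 0.02) were the other two, the last not called without infested B75 replicate 1 (0.57) or infested F1 replicate 2 (0.65). Zm00001d010840 was at 1.26 ± 0.52 in this cross (adjusted p = 0.066). It was called with the replicate number as a block (1.52, adjusted p = 0.0035) and without infested B75 replicate 3 (2.45, adjusted p = 0.00045), infested F1 replicate 4 (1.56, adjusted p = 0.029) or infested B73 replicate 8 (1.29, adjusted p = 0.045). Zm00001d008283 and Zm00001d052137 are named here after their values were seen.

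Lower levels in the infested hybrid also occurred outside the 31 genes. A set of genes was high in both inbreds but did not meet all B73 mite criteria. Of those tested, 66.3% were lower in the infested F1 of B96 than in infested B96, beside 58.1% of the 31. Among the genes with the B73 mite response and neither inbred high this share was 9.22%. In the B75 cross the shares were 68.7%, 45.2% and 2.05%. All these sets were chosen with uninfested inbreds, and the shares carry no test.

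The uninfested hybrids were placed between their uninfested parents on the linear CPM scale, where 0 is the B73 mean and 1 the inbred mean. The median position of the 31 genes was 0.285 in the F1 of B96 and 0.517 in the F1 of B75, a description since both parents were used by the criteria. For the F1 of B96, 12 genes lay under 0.25, 13 between 0.25 and 0.75 and 6 above, and in the F1 of B75 the numbers were 9, 13 and 9. On a log2 scale the medians were 0.488 and 0.77. Beside these, the genes high in both inbreds that did not meet all B73 mite criteria had medians of 0.493 and 0.437 on the linear scale. Among genes that met the B73 mite criteria, those high in B96 alone had 0.213 in its cross and those high in B75 alone 0.53 in its cross.

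**Figure D5:**
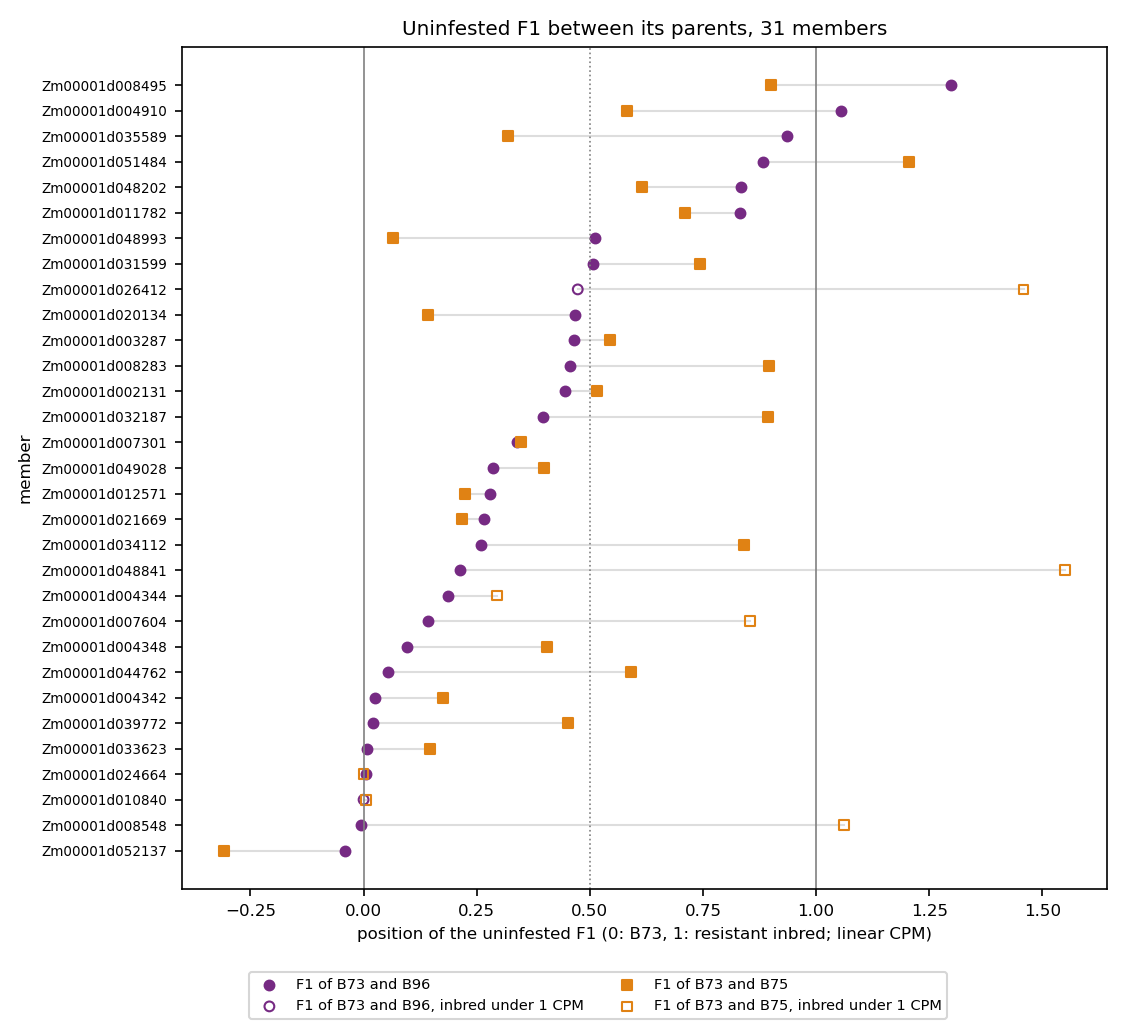
Position of the uninfested F1 between uninfested B73 (0) and the uninfested inbred (1) on linear CPM for each of the 31 genes, with circles for the B96 cross and squares for the B75 cross, from means of 4 libraries a group. Open symbols are genes under 1 CPM in that inbred, and Zm00001d039772, Zm00001d044762 and Zm00001d048841 lie much nearer to B73 in the B96 cross than in the B75 cross.

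Several genes with high levels in infested B96 were near the B73 end of this scale in its uninfested hybrid. The position of Zm00001d004342 was 0.025 in the F1 of B96 and 0.176 in the F1 of B75, and that of Zm00001d033623 was 0.008 and 0.146. Zm00001d039772 lay at 0.020 and 0.453, Zm00001d004348 at 0.096 and 0.405 and Zm00001d044762 at 0.054 and 0.592, each nearer to B73 in the B96 cross. Zm00001d002131 stood near the middle in both, at 0.445 and 0.517. All 4 uninfested hybrid libraries lay below all 4 of the inbred for 20 genes in the B96 cross (13.2% of all genes) and 12 in the B75 cross (10.5%). They lay above all 4 of B73 for 21 genes (14.4%) and 22 genes (16%).

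The mean of the uninfested hybrid was under that of B73 for 2 genes and above that of the inbred for 2 in the B96 cross, and for 1 and 4 genes in the B75 cross. Zm00001d052137, also named after its values were seen, was under B73 in both crosses. It held 0.371, 0.430, 0.835 and 0.186 CPM in the uninfested F1 of B96, where B73 held 0.835, 0.526, 0.966 and 1.13 CPM and B96 held 11, 12.4, 8.45 and 12.3 CPM. The mean of the hybrid was thus under that of both parents, with overlap of single libraries with B73 (position -0.040). Its position was -0.31 in the B75 cross, where the means were 0.261 ± 0.241 CPM in the F1, 1.22 ± 0.34 CPM in B73 and 4.35 ± 4.18 CPM in B75 (SD, n = 4), and the gene met the criterion on B75 only with uninfested B75 replicate 1 (ratio 2.08 without it). With mites it rose to 3.46, 6.55, 6.86 and 6.16 CPM in the F1 of B96 (3.53 ± 0.43, adjusted p = 1.4e-06), while infested B96 was at 2.76, 5.14, 9.49 and 7.78 CPM, below its uninfested libraries but for overlap with 1 of them.

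The mite responses of the inbreds B96 and B75 themselves share their uninfested libraries with the criteria and are given as values only. Their median log2 fold change over the 31 genes was 1.39 in B96, with single genes from -1.02 to 7.95, and 1.44 in B75, from -1.13 to 7.88, and nothing is read from these values. Infested B96 lay above infested B73 in 27 of the 31 genes by its mean, and infested B75 in 25. The genes were chosen for a higher uninfested level in both inbreds, and the share over all genes is not given here. These counts are therefore also a description.

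Among the remaining genes with high levels, Zm00001d032187 was at 39, 24.3, 33.5 and 10.8 CPM in the uninfested F1 of B96 and at 78.1, 118, 115 and 100 CPM infested (1.84 ± 0.31, adjusted p = 7.2e-05), and it rose by 1.11 ± 0.19 in the F1 of B75 (adjusted p = 5.1e-05). Zm00001d008495 was at 5.75, 4.36, 8.56 and 2.48 CPM uninfested and 30.1, 39.3, 51.9 and 54.0 CPM infested in the F1 of B96 (2.96 ± 0.29, adjusted p = 7.2e-08). Its infested hybrid did not differ detectably from infested B96, at 0.08 ± 0.26 (adjusted p = 0.83). Together the 31 genes summed to 468 to 615 CPM in uninfested libraries of the F1 of B96 and to 6056 to 6428 CPM in infested ones, and in the F1 of B75 to 393 to 535 CPM and 2030 to 3062 CPM. In both hybrids the lowest infested sum was well above the highest uninfested one. Zm00001d004342 and Zm00001d004348 together made up 64.9% of the uninfested and 70.2% of the infested sum in the F1 of B96. Their shares in the F1 of B75 were 44.6% and 48.5%.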

How the data were processed

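The authors deposited whole-number counts for each feature in each of the 48 libraries. The submitters' processing notes name STAR 2.5.3a, HTSeq 0.9.1 and the build B73 RefGen_v4 without their options. The libraries were poly(A)-selected and strand-marked per the labels' protocols. The 5 summary lines for unassigned reads held a mean of 17.6% of reads (12.7 to 28.0%) and were left out of every total and fit.

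CPM were computed as plain counts per 1000000 gene counts. Each experiment's 24 libraries were fitted as group means in R 4.3.3 with edgeR 4.0.16 (limma 3.58.1): filterByExpr with a minimum count of 10, TMM scaling, the quasi-likelihood test and Benjamini-Hochberg adjustment over all 22569 (B96) or 22572 (B75) genes at 0.05. All 31 genes passed the filter. Plain CPM in place of TMM moved the median log2 change of all genes to between 0.08 and 0.20 over the 6 comparisons, against -0.03 to 0.01 in the fits. The scripts were checked on simulated counts.

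The members and lists were chosen with earlier results of these data known. Genes named in the text are the 10 highest over the 24 libraries the criteria did not use, the 3 largest and 3 smallest mean hybrid responses, the nearest on either side of a threshold, and those not called in a hybrid; others are said to be named after their values were seen. Alternatives covered DESeq2 1.42.0, its size factors, no filter, fits of the compared groups alone, each library left out and the replicate number as a block. Leaf markers and gene lists gave no value because the reference table matched none of the Zm identifiers.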

Additional observations from a re-analysis of the deposited data

Results flagged for a closer look

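In 214 groups of 4 libraries over the named genes, 23 had 1 library far from the other 3. A chance rate of about 1 in 20 would hold only for independent values with a normal spread. Values that rest on a few counts lack that spread, and a library low or high over many genes enters many groups. A single count beside 0 in the other 3 libraries is always flagged. The number flagged is therefore a description, without a chance rate to set it against.

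High in the flagged library were Zm00001d004348 in infested B73 replicate 2 (787 CPM, the others 417 to 458), Zm00001d033623 in infested F1 of B96 replicate 1 (378 CPM, the others 136 to 158) and Zm00001d010840 in infested B75 replicate 3 (30.5 CPM, the others 4.21 to 6.79). Uninfested B96 replicate 2 was high for Zm00001d032187 (87.4 CPM, the others 45 to 51.2) and for Zm00001d008548 (4.74 CPM, the others 0.384 to 0.636). Uninfested F1 of B75 replicate 2 was high for Zm00001d033623 (3.53 CPM) and Zm00001d021669 (6.99 CPM). Zm00001d021669 was also high in infested B75 replicate 4 (11.1 CPM) and uninfested B73 replicate 1 (2.25 CPM), Zm00001d011782 in infested F1 of B75 replicate 1 (9.53 CPM), Zm00001d044762 in uninfested B73 replicate 2 (1.23 CPM) and Zm00001d008548 in uninfested B73 replicate 1 (0.522 CPM).

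Low in the flagged library were Zm00001d039772 in infested B73 replicate 1 (1.18 CPM, the others 4.22 to 4.57) and in uninfested F1 of B96 replicate 4 (2.54 CPM, the others 7.31 to 7.59). Zm00001d044762 was low in infested F1 of B96 replicate 1 (346 CPM, the others 454 to 468), Zm00001d032187 in infested F1 of B75 replicate 4 (102 CPM, the others 134) and Zm00001d048202 in infested B75 replicate 4 (9.49 CPM, the others 14.8 to 14.9).

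The other 6 rest on 0 or 1 count in the library. They are Zm00001d048841 in uninfested B73 replicate 8 (0.0560 CPM), Zm00001d026412 in uninfested B73 replicates 4 (0.0595 CPM) and 5 (0.0497 CPM) and in uninfested F1 of B96 replicate 3 (0 CPM, the others 0.0614 to 0.0619), and Zm00001d010840 in uninfested B73 replicate 6 (0.0562 CPM) and uninfested F1 of B75 replicate 4 (0.0573 CPM).

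The mite responses of both hybrids differed by the test of the difference for Zm00001d004348 (1.45 on the log2 scale) and Zm00001d039772 (1.60), with cross and experiment not separable.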

How the results depend on the processing

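Among the recomputed summary values 240 stayed within the limits set for them (1.5 times for a count) and 18 moved. Neither median position changed sign, nor did a called value of a named gene. Counts cannot change sign, and a change of sign in a value called in neither fit was not flagged. An inbred ratio of at least 2 gave 62 genes in place of 31, and a minimum of 5 CPM in infested B73 gave 15. The median position of the uninfested hybrid was 0.488 (B96 cross) and 0.77 (B75 cross) on the log2 scale, against 0.285 and 0.517. The difference between both hybrids' responses had 2 calls, 6 with DESeq2, and 0 to 2 with each library left out. Leaving libraries out gave 25 to 27 genes risen in the F1 of B96 and 23 to 27 in the F1 of B75. The replicate block gave 27 and 26 genes risen, 22 and 18 called between infested hybrid and inbred and 3 in the difference of responses. The labels mention blocks without tying replicate numbers to them, and the numbers were not taken as pairs in the main fits. The submitters' library codes nevertheless run consecutively within each replicate number of an experiment, taking B73 of the B75 experiment in its own order. Same-numbered libraries deviated together unevenly (correlations of 0.067 to 0.441 in the F1 of B96 and 0.031 to 0.323 in the F1 of B75). These correlations exceeded the highest with another number except for replicate 1 (0.195 against 0.303 and 0.031 against 0.138). Between infested F1 and infested B96 only replicate 4 did so (0.248 against 0.071). Between infested F1 and infested B75 replicates 2, 3 and 4 did so (0.327 against -0.038, 0.145 against 0.115 and 0.237 against 0.05). Replicate 1 of that comparison did not (0.048 against 0.053). Whether the numbers mark blocks was not tested. The cause of the shifts between settings was not tested. Depth limits the genes under 1 CPM, where a group rests on a few counts.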
